A study of Homo sapiens with 4 samples.

Results

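The endoplasmic reticulum (ER) folds and inspects proteins bound for secretion, and the genes described here are 44 that encode its stress sensors, its chaperones, its disulfide enzymes and the machinery of ER-associated degradation (ERAD). They were taken by name, from a list drawn up with earlier results of these data known, and grouped by role into 3 sensors of the unfolded protein response, 16 chaperones and folding factors, 10 disulfide enzymes and 15 ERAD components. Of the 44, 42 had a row among the 15201 genes of the table, and all 42 had a mean of at least 1 FPKM (sequenced fragments scaled by transcript length and library size) over the libraries. HYOU1 and DERL3 are not analysed here.

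Expression had been measured by RNA sequencing in ARP-1 cells, an established line from human myeloma. The resistant cells (CfzR) were ARP-1 with acquired resistance to carfilzomib, a drug that blocks the proteasome, and the control cells were wild-type ARP-1 (WT), with 2 libraries each. The labels give no dose, no length of selection, no clone or pool, and do not say whether the drug was present at harvest or whether the libraries of a group were grown separately. The p-values therefore reflect library-to-library spread alone, part or all of which may be technical. In bulk RNA a change in the share of cells and a change in RNA per cell cannot be told apart.

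Misfolded proteins in the ER draw the chaperone BiP away from the sensors IRE1, PERK and ATF6, which then raise chaperone and ERAD genes, slow translation and, under lasting stress, turn to cell death. ERAD moves terminally misfolded proteins back through the membrane to the proteasome, so a proteasome inhibitor blocks its last step. Plasma cells and the myeloma cells derived from them secrete immunoglobulin in bulk and depend on this machinery.

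Of 12 plasma cell markers 10 had a row, with sums of 20106 and 23330 FPKM in CfzR, against 19348 and 15399 FPKM in WT, led by the light chain gene IGKC. The syndecan gene SDC1 stood at 272 and 213 FPKM in CfzR, against 205 and 189.5 FPKM in WT. The list was not uniform: SLAMF7, a surface receptor of plasma cells, stood at 22.1 and 18.7 FPKM in CfzR, against 0.282 and 0.198 FPKM in WT, and TNFRSF17, the receptor BCMA, at 194 and 275 FPKM in CfzR, against 312 and 382 FPKM in WT. The part of these markers in the results was not tested. Of the listed markers of other cells, 1 of 6 had a row for B cells, 1 of 7 for myeloid cells and 2 of 5 for epithelium, with no value above 5.39 FPKM, and those of T and NK cells, fibroblasts and erythroid cells had none. ABCB1, a drug efflux pump, stood at 268 and 228 FPKM in CfzR, against 1.27 and 0.631 FPKM in WT. CfzR replicate 1 had the lowest sum of FPKM (673265, against 877849 in CfzR replicate 2 and 918617 and 955284 in WT), while the medians differed little, with a highest of 7.75 FPKM. Depth cannot be read from FPKM, so no counting error is given.

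The promoter sequences are shown first because the response is known to act on these genes through short promoter elements. The ER stress response element (ERSE) is the site through which ATF6, with the factor NF-Y on its CCAAT box, acts on chaperone genes. It was searched as CCAAT, then 9 bases of any kind, then CCACG, on both strands of RefSeq windows (GRCh38.p14) that run from 250 bases before to 50 after each gene's start, taking the first start listed for a gene. Of 41 listed genes with a window, 6 held it (14.6%), against 22 of the 27305 genes with a RefSeq window (0.0806%) and 14 of 8966 tested genes with a window (0.156%). The element is known from chaperone genes of this response, so its larger share among the listed genes is no finding of these data. Their sequences follow, in the direction of transcription, with both fixed blocks of the element in capitals; where the element lies on the other strand, the capitals read CGTGG before ATTGG.

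HSPA5: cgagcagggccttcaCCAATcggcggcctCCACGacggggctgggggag
HSP90B1: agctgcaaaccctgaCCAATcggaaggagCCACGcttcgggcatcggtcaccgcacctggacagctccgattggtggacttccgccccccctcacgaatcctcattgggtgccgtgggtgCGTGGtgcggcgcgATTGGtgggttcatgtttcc
CALR: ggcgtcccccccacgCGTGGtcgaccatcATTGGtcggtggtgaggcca
CANX: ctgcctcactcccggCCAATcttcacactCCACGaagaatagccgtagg
CRELD2: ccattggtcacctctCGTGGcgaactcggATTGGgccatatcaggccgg
ERO1B: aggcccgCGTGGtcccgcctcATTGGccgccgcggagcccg

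These stretches lie at chr9:125241376-125241424 on the minus strand for HSPA5, chr12:103930201-103930354 on the plus strand for HSP90B1, chr19:12938369-12938417 (plus) for CALR, chr5:179698763-179698811 (plus) for CANX, chr22:49918539-49918587 (plus) for CRELD2 and chr1:236282168-236282208 (minus) for ERO1B. The element of HSPA5 lies closest to the start, 48 to 66 bases before it. HSP90B1 was the single tested gene with 2 elements, 176 to 194 and 71 to 89 bases before its start, the nearer one in reverse. PDIA6 held an ERSE in 1 of its 2 listed windows, though not in the first, and CANX in 3 of 4.

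A shorter relative, ERSE-II, places ATTGG and CCACG 1 base apart. It was found for 3 of the 41 genes (7.32%), against 15 of 27305 in all (0.0549%). For HYOU1 no expression value was analysed, and the other two are shown with both fixed blocks in capitals, at chr16:56932010-56932050 for HERPUD1 and chr22:21642099-21642139 for SDF2L1, both on the plus strand, the second in reverse.

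HERPUD1: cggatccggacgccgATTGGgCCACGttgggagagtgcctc
SDF2L1: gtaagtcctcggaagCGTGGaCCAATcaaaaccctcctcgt

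The UPRE core TGACGTGG, bound by XBP1 and ATF6, was in the windows of 4 of the 41 genes (9.76%, against 0.795% of all genes), namely DNAJC10, HYOU1, TXNDC11 and UBE2J1. The related element TGACGTCA was in 0 of 41 (1.98% of all), and the plain CCAAT box, part of ERSE and ERSE-II, in 30 of 41 (73.2%, against 35.7%). A match is a run of letters in this window and not a measured binding site. The shares of ERSE-II and the UPRE core, likewise known elements of this response, are no finding of these data either.

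The question put to the expression values was how this machinery stood in resistant against wild-type cells. Most of its genes stood somewhat higher in CfzR, by less than the test could call. With limma on log2(FPKM + 1), 0 of 42 passed an adjusted p of 0.05 over the 13411 genes tested, where 47 genes did (0.35%). At an unadjusted p under 0.05 there were 5 higher in CfzR, namely CANX, HSPA5, EDEM1, ERN1 and DNAJC3, and 0 lower, against 5.32% and 5.81% of all genes. Both CfzR libraries lay above both WT libraries for 25 of the 42 (59.5%, where 22.1% of all genes did so), and below for 3 (7.14%, against 22.6%). The median log2 fold change was 0.24, against -0.02 over all genes tested, and 32 of 42 were positive (76.2%, against 47.1%). Taken library by library, the median difference from the WT mean was 0.28 in the first CfzR library and 0.23 in the second, against -0.05 and 0.00104 for all genes. A permutation test over these 4 libraries cannot go below p = 0.333.

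Adding 1 FPKM before the log shrinks the fold changes of genes near 1 FPKM. The 95% interval of limma lay within a log2 change of 1 in either direction for 33 of the 42 genes, so a change beyond that size was compatible with the data for 9. CfzR replicate 1 differed from CfzR replicate 2 with transcript length and base composition. After a correction for both, 21 genes were higher without overlap and 4 lower (against 21.8% and 24.7% of all genes), and the median was 0.18, against -0.04 over all.

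**Figure D1:**
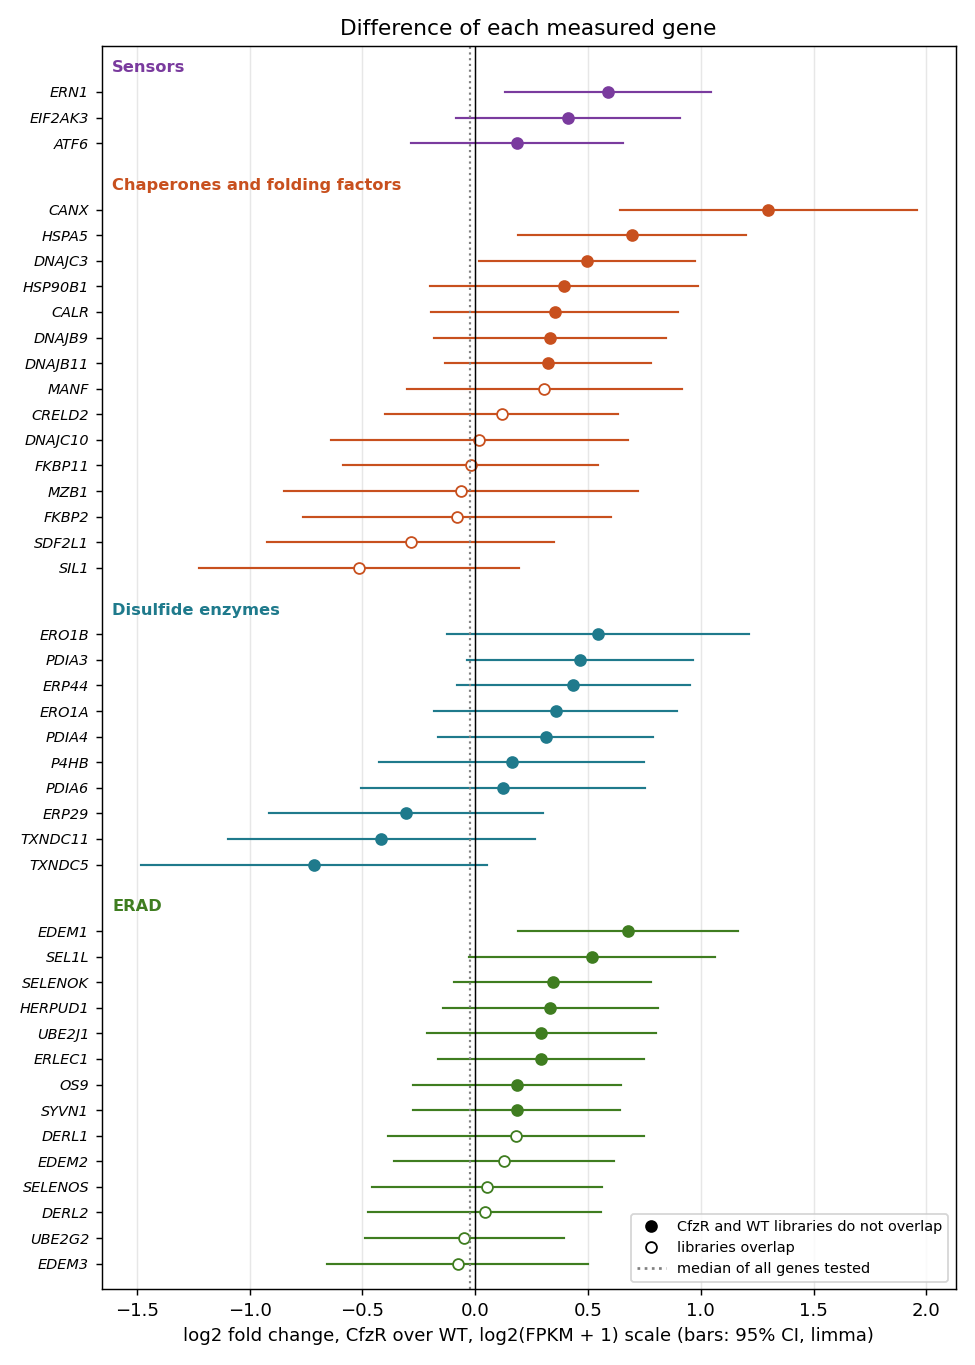
Log2 fold change of the 42 measured genes (CfzR over WT, log2(FPKM + 1) scale) by role, sorted within each role, with 95% limma intervals; filled points mark genes whose CfzR and WT libraries do not overlap, and the dotted line is the median of all genes tested (-0.02). The 3 sensors and most ERAD genes lie right of 0, CANX lies farthest right (1.30) and TXNDC5 farthest left (-0.71).

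All 3 sensors were higher in both CfzR libraries than in either WT library, where 22.1% of all genes tested were. All 3 have a transcript of at least 3000 bases, and 27.9% of tested genes of that length were higher in this way. The median log2 fold change of the sensors was 0.41, and 0.30 after the correction for length and GC share. A limma unadjusted p under 0.05 was found for 1, higher in CfzR, against 5.32% of all genes. ERN1 encodes IRE1, the kinase and nuclease that splices XBP1 mRNA, on the minus strand at chr17:64039142-64130819 (GRCh38). It stood at 44.1 and 38.0 FPKM in CfzR, against 27.5 and 26.3 FPKM in WT. These libraries were clearly apart, 1.52-fold in the means (log2 fold change 0.59, SE 0.19, limma adjusted p = 0.329, unadjusted p = 0.0187). With 1 library left out the log2 fold change of ERN1 ran from 0.48 to 0.69.

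EIF2AK3, which encodes PERK, the kinase that phosphorylates the translation factor eIF2α, stood at 36.2 and 32.5 FPKM in CfzR, against 29.003 and 22.5 FPKM in WT. The gap between the groups was small beside the spread in WT, and the log2 fold change was 0.41 (adjusted p = 0.509). ATF6, the membrane-bound transcription factor released by cleavage in the Golgi, stood at 10.1 and 8.74 FPKM in CfzR, against 8.57 and 7.75 FPKM in WT. It was the lowest of the sensors in every library, and its groups nearly touched (log2 fold change 0.19, limma adjusted p = 0.727). After the correction for length and GC share the log2 fold change of ATF6 was 0.017.

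**Figure D2:**
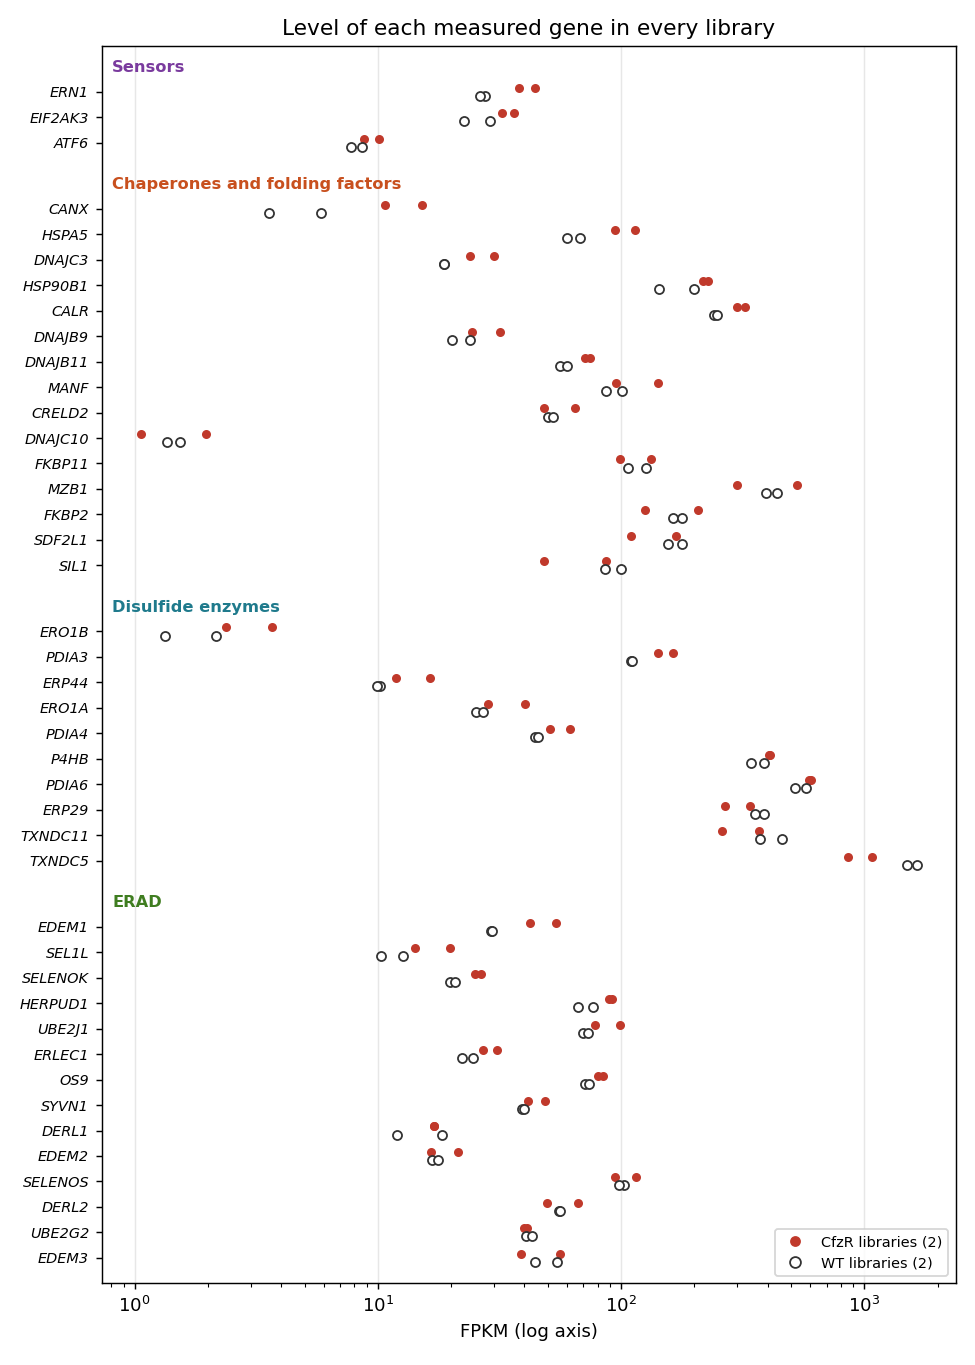
FPKM of the 42 measured genes in every library (log axis), by role, sorted as in the plot of fold changes; filled points are the 2 CfzR libraries and open points the 2 WT libraries. Levels run from DNAJC10 at 1.06 to 1.97 FPKM to TXNDC5 at 854 to 1642 FPKM.

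Among the 15 chaperones and folding factors with values, 10 had positive log2 fold changes and 5 negative ones (median 0.31). Without overlap, 7 were higher (46.7%, against 22.1% of all genes tested) and 0 lower (against 22.6%). A limma unadjusted p under 0.05 was found for 3, all higher, against 5.32% of all genes. The general chaperones HSPA5, HSP90B1, CALR and CANX were all among the 7. HSPA5 encodes BiP, the Hsp70 of the ER (chr9:125234853-125241330, minus strand), and stood at 115 and 94.1 FPKM in CfzR, against 60.0 and 67.8 FPKM in WT. Both CfzR values lay well above both WT values, averaging 104 ± 14.5 FPKM in CfzR and 63.9 ± 5.52 FPKM in WT (SD, n = 2 each). The ratio of means was 1.63, with log2 fold change 0.69, SE 0.21, limma adjusted p = 0.306 and a 95% interval of 0.19 to 1.1998. With 1 library left out the log2 fold change of HSPA5 ran from 0.55 to 0.83.

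CANX encodes calnexin, the membrane-bound lectin that holds newly made glycoproteins. It stood at 15.2 and 10.7 FPKM in CfzR, against 3.55 and 5.84 FPKM in WT. It had the largest log2 fold change among the 42 genes, 2.75-fold in the means (log2 fold change 1.30, SE 0.28, limma adjusted p = 0.153, 95% interval 0.64 to 1.96). At these low WT values the log2 fold change of CANX depended on the constant added, at 1.46 with 0.1 FPKM and 0.88 with 5 FPKM. With 1 library left out at a time its adjusted p ran from 0.0148, without WT replicate 2, to 0.361. The level was low for this family: CALR, the soluble counterpart of calnexin in the ER lumen, stood at 300.5 and 323 FPKM in CfzR, against 241 and 247 FPKM in WT, on the same FPKM scale. Calreticulin was higher in CfzR without overlap, by a log2 fold change of 0.35 (adjusted p = 0.581) in limma.

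HSP90B1, the Hsp90 of the ER (GRP94), which folds Toll-like receptors and integrins, stood at 228 and 217 FPKM in CfzR, against 144 and 199 FPKM in WT. WT replicate 2 lay close to the CfzR pair, and the log2 fold change was 0.39 (limma adjusted p = 0.573). The J-domain proteins deliver clients to BiP and spur its ATPase. DNAJC3, also an inhibitor of PERK, stood at 30.1 and 23.8 FPKM in CfzR, against 18.7 and 18.7 FPKM in WT. Its WT values were nearly equal and both CfzR values were higher (log2 fold change 0.50, SE 0.20, limma adjusted p = 0.431; unadjusted p = 0.0436). DNAJB9, which holds BiP on IRE1, stood at 31.8 and 24.3 FPKM in CfzR, against 20.1 and 23.9 FPKM in WT, so that CfzR replicate 2 was barely above WT replicate 2. DNAJB11 stood at 71.0 and 74.4 FPKM in CfzR, against 56.1 and 59.8 FPKM in WT, with both groups tight and apart (log2 fold change 0.32, limma adjusted p = 0.554). DNAJC10, a disulfide reductase that also carries a J domain, was the lowest of the 42 genes by its mean over the libraries, at 1.97 and 1.06 FPKM in CfzR, against 1.36 and 1.53 FPKM in WT, and its groups overlapped.

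A second set of chaperone genes did not separate the groups. MANF, a secreted ER stress factor, stood at 95.1 and 142 FPKM in CfzR, against 86.8 and 101 FPKM in WT, and CRELD2, another ER stress-induced factor, at 48.4 and 64.5 FPKM in CfzR, against 50.3 and 52.6 FPKM in WT. SDF2L1, which works with the J-domain proteins on BiP, stood at 110.1 and 168 FPKM in CfzR, against 156 and 177 FPKM in WT. In each of the 3 CfzR replicate 1 lay below CfzR replicate 2, and the CfzR and WT ranges overlapped. SIL1, the nucleotide exchange factor of BiP, showed the same order of its CfzR libraries, at 48.2 and 86.4 FPKM in CfzR, against 86.2 and 99.9 FPKM in WT, and had the most negative log2 fold change of the chaperones (-0.52, limma adjusted p = 0.549).

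The plasma cell chaperone MZB1, which aids immunoglobulin assembly, was the most abundant chaperone by its mean over the libraries, at 299 and 528 FPKM in CfzR, against 395 and 436 FPKM in WT. Its CfzR libraries enclosed both WT libraries. The prolyl isomerases FKBP2 and FKBP11 did the same, at 125 and 207 FPKM in CfzR, against 163 and 177 FPKM in WT for FKBP2 and 98.9 and 133 FPKM in CfzR, against 126 and 107 FPKM in WT for FKBP11. Their log2 fold changes were -0.081 and -0.020, and that of MZB1 was -0.062, all with limma adjusted p of 0.925 to 0.980; all 3 turned positive under quantile normalization (0.13, 0.16 and 0.23).

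The 10 disulfide enzymes split without overlap in every case. In CfzR 7 were higher (70%, against 22.1% of all genes tested) and 3 lower (30%, against 22.6%). Their median log2 fold change was 0.24, and 0 had an unadjusted p under 0.05. These enzymes form and rearrange the disulfide bonds of secreted proteins, and the ERO1 oxidases recharge them with oxygen. TXNDC5, a protein disulfide isomerase abundant in plasma cells (chr6:7881517-7910814, minus strand), was the highest of the 42 genes and the one with the largest deficit. It stood at 1071 and 854 FPKM in CfzR, against 1642 and 1503 FPKM in WT. The ratio of means was 0.612 (log2 fold change -0.71, SE 0.32, limma adjusted p = 0.478; unadjusted p = 0.0636, 95% interval -1.48 to 0.053). Its value is uncertain, since 60.6% of its exon bases are shared with the read-through gene BLOC1S5-TXNDC5.

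TXNDC11, a thioredoxin-domain protein that aids ERAD, stood at 259 and 370.1 FPKM in CfzR, against 373 and 458 FPKM in WT, and ERP29, a relative without the active-site cysteines, at 267 and 338 FPKM in CfzR, against 356 and 388 FPKM in WT. In both, the higher CfzR library came within reach of the lower WT library, and the log2 fold changes were -0.42 and -0.31 (limma adjusted p = 0.598 and 0.659). A pseudogene of ERP29 also has a row, so its reads may be split.

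PDIA3, the partner of calnexin and calreticulin in glycoprotein folding, stood at 164 and 142 FPKM in CfzR, against 110.1 and 110.4 FPKM in WT. The WT pair was nearly identical and both CfzR libraries lay higher (log2 fold change 0.46, SE 0.21, limma adjusted p = 0.479), though 1 of its 2 named pseudogenes also has a row in the table and reads could be split between them. PDIA4, which acts with BiP, stood at 61.9 and 51.0 FPKM in CfzR, against 44.4 and 45.7 FPKM in WT (log2 fold change 0.31, limma adjusted p = 0.576). ERP44, which retains ERO1 and unassembled immunoglobulin M, stood at 16.3 and 11.9 FPKM in CfzR, against 10.2 and 9.90 FPKM in WT (log2 fold change 0.44, limma adjusted p = 0.504). PDIA6, an isomerase that attenuates IRE1, stood at 589.7 and 604 FPKM in CfzR, against 519.9 and 576 FPKM in WT, and P4HB, the classical protein disulfide isomerase, at 406 and 411 FPKM in CfzR, against 388 and 343 FPKM in WT. Both were a step above WT of no more than 1.12-fold in the means, and 25.2% of the exon bases of PDIA6 overlap ATP6V1C2 on the opposite strand. For P4HB, 9.98% overlap AC145207.3, also opposite, at 80.3 and 86.1 FPKM in CfzR, against 84.5 and 58.0 FPKM in WT. The strand setting is unknown, so reads of such pairs may be mixed.

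The oxidases ERO1A and ERO1B stood at 40.2 and 28.3 FPKM in CfzR, against 25.3 and 27.1 FPKM in WT for ERO1A and 3.68 and 2.37 FPKM in CfzR, against 1.34 and 2.17 FPKM in WT for ERO1B. ERO1B was the lower of the pair in every library. CfzR replicate 1 was the highest library for each, and CfzR replicate 2 only just cleared the WT pair, with log2 fold changes of 0.36 (adjusted p = 0.572) and 0.54 (adjusted p = 0.513) in limma.

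Of the 14 ERAD genes with values, 12 had positive log2 fold changes and 2 negative ones (median 0.19). Without overlap, 8 were higher (57.1%, against 22.1% of all genes tested) and 0 lower (against 22.6%). In 1 gene, higher in CfzR, the limma unadjusted p was under 0.05, against 5.32% of all genes. That gene was EDEM1, which extracts misfolded glycoproteins by trimming their mannose and is a target of IRE1 and XBP1 (chr3:5187646-5219957, plus strand). It stood at 53.8 and 42.2 FPKM in CfzR, against 29.3 and 29.5 FPKM in WT. The WT libraries were level and both CfzR libraries higher, 1.63-fold in the means (log2 fold change 0.68, SE 0.21, limma adjusted p = 0.302, 95% interval 0.19 to 1.17). The log2 fold change ran from 0.51 to 0.85 with 1 library left out. Of its paralogues, EDEM2 stood at 16.5 and 21.4 FPKM in CfzR, against 16.6 and 17.6 FPKM in WT, and EDEM3 at 55.8 and 38.8 FPKM in CfzR, against 54.4 and 44.4 FPKM in WT. Both had overlapping groups, with log2 fold changes of 0.13 and -0.078; whether they differ from EDEM1 was not tested.

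The retrotranslocation complex is built on the ubiquitin ligase HRD1, encoded by SYVN1, and its adaptor SEL1L. SEL1L stood at 19.8 and 14.3 FPKM in CfzR, against 12.7 and 10.3 FPKM in WT (log2 fold change 0.52, limma adjusted p = 0.468), and SYVN1 at 41.6 and 48.6 FPKM in CfzR, against 39.2 and 39.8 FPKM in WT (0.18, limma adjusted p = 0.724). HERPUD1, which organises the complex, stood at 88.8 and 91.7 FPKM in CfzR, against 76.7 and 66.5 FPKM in WT. CfzR libraries were above WT in all 3, with the largest log2 fold change in SEL1L; 7.24% of the exon bases of SYVN1 are shared with the abundant gene FAU. The channel proteins DERL1 and DERL2 did not separate, with log2 fold changes of 0.18 and 0.042 and DERL1 at 17.0 and 16.9 FPKM in CfzR, against 18.4 and 11.982 FPKM in WT.

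The lectins OS9 and ERLEC1, which present trimmed glycoproteins to SEL1L, were both higher in CfzR without overlap: OS9 stood at 80.4 and 84.3 FPKM in CfzR, against 70.8 and 73.6 FPKM in WT, and ERLEC1 at 30.7 and 27.0 FPKM in CfzR, against 22.2 and 24.6 FPKM in WT. Of the selenoproteins of the complex, SELENOK stood at 25.2 and 26.6 FPKM in CfzR, against 19.7 and 20.7 FPKM in WT, apart in both groups, and SELENOS at 93.9 and 115 FPKM in CfzR, against 103 and 97.6 FPKM in WT, with overlap. Reads of SELENOK may be split with its pseudogenes, 1 of which has a row. For OS9, 13.5% of exon bases overlap AC025165.2 on the opposite strand, at 16.7 and 40.0 FPKM in CfzR, against 27.3 and 37.5 FPKM in WT. The ubiquitin-conjugating enzyme UBE2J1 stood at 98.9 and 78.0 FPKM in CfzR, against 69.7 and 73.2 FPKM in WT, and UBE2G2 at 39.9 and 41.2 FPKM in CfzR, against 40.8 and 43.2 FPKM in WT. Of this pair, UBE2J1 was higher without overlap (log2 fold change 0.29, limma adjusted p = 0.618), while UBE2G2 was level (-0.049, limma adjusted p = 0.931).

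Set against the promoter sequences, the 6 genes with an ERSE (HSPA5, HSP90B1, CALR, CANX, CRELD2 and ERO1B) all had positive log2 fold changes. They ran from 0.12 to 1.30, with a median of 0.47. That median rests in part on ERO1B, at 0.54 and with low FPKM. Its value was 0.76 with 0.1 FPKM added, 0.25 with 5 FPKM added and 0.31 after the length and GC correction. Of the 6, 5 were higher without overlap (83.3%, against 22.1% of all genes tested). The 34 with a value and a window but no ERSE had a median of 0.18, from -0.71 to 0.68, with 24 positive. Of the 34, 19 were higher without overlap (55.9%) and 3 lower. PDIA6, with an ERSE in its other listed window, is counted among the 34. The 8 tested genes outside the list that held an ERSE had a median of 0.12, with 2 higher and 2 lower without overlap. HERPUD1 and SDF2L1, with an ERSE-II, had log2 fold changes of 0.33 and -0.28. With 6 genes in the smaller set these are descriptions, and EDEM1 and ERN1, with no such element in the window, had larger values than most of the 6.

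**Figure D3:**
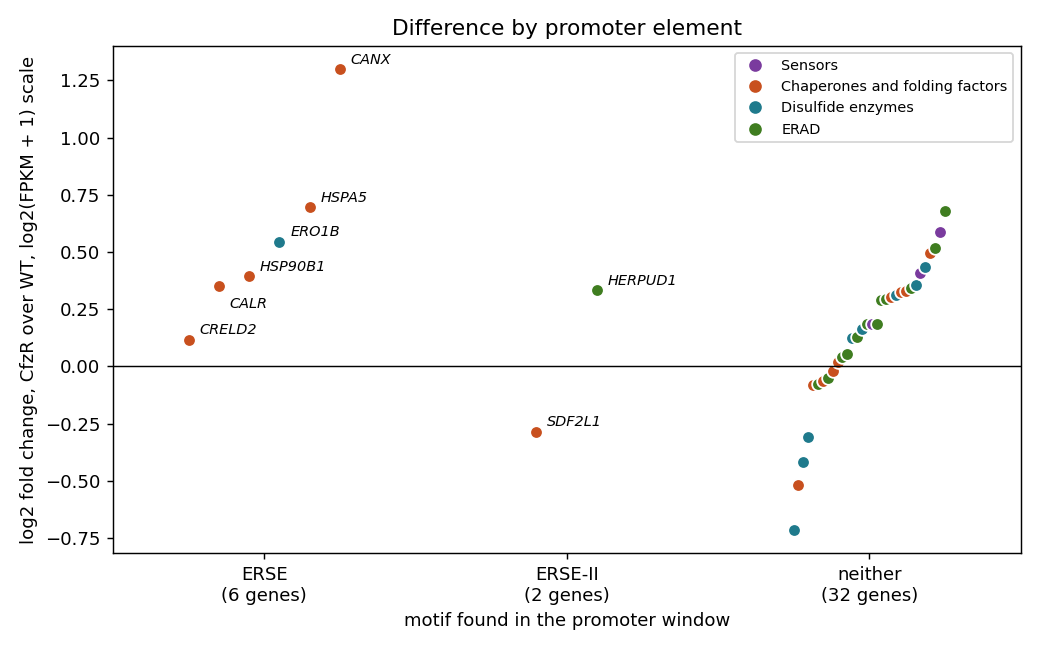
Log2 fold change (CfzR over WT, log2(FPKM + 1) scale) of the 40 genes with a value and a promoter window, by the element found in the window and coloured by role. The 6 genes with an ERSE run from 0.12 (CRELD2) to 1.30 (CANX), all above 0, and the 32 with neither element run from -0.71 to 0.68.

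The 2 CfzR libraries differed from each other along these genes more than the WT libraries did, with a median absolute log2 difference of 0.33 in CfzR, against 0.13 in WT. CfzR replicate 1 was below CfzR replicate 2 for 21 genes and above it for 21. The difference followed transcript length (Spearman 0.68 over the 42 genes) and, inversely, GC share (-0.74). In the WT pair the same coefficients were 0.45 and -0.06, and over 12896 tested genes the CfzR pair had 0.47 and -0.35. These correlations are across genes of the same libraries and are descriptions only. At one end stood SIL1 (longest transcript 1923 bases, difference -0.83), MZB1 (1887 bases, -0.82), FKBP2 (1002 bases, -0.72) and SDF2L1 (865 bases, -0.61). At the other stood DNAJC10 (20129 bases, 0.53), EDEM3 (6898 bases, 0.51) and ERO1A (5285 bases, 0.49).

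The difference between the groups moved with length too. The 24 genes with a transcript of at least 3000 bases had medians of 0.44 (CfzR replicate 1) and 0.27 (CfzR replicate 2) above the WT mean, and 17 were higher without overlap (70.8%, against 27.9% of all tested genes of that length). For the 18 shorter genes the medians were -0.01 and 0.20, and 8 were higher without overlap (44.4%, against 16.9%). Over all tested genes the same medians were 0.13 and -0.0067 for long genes, and -0.24 and 0.0077 for short ones. In CfzR replicate 2, where length had little relation to the difference from WT (Spearman -0.06 over the 42 genes), 33 of the 42 stood above both WT libraries and 5 below both; in CfzR replicate 1 it was 27 and 13. Of the 13411 genes tested, 4907 were above and 4724 below both in CfzR replicate 2, and 5161 above and 6083 below in CfzR replicate 1.

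**Figure D4:**
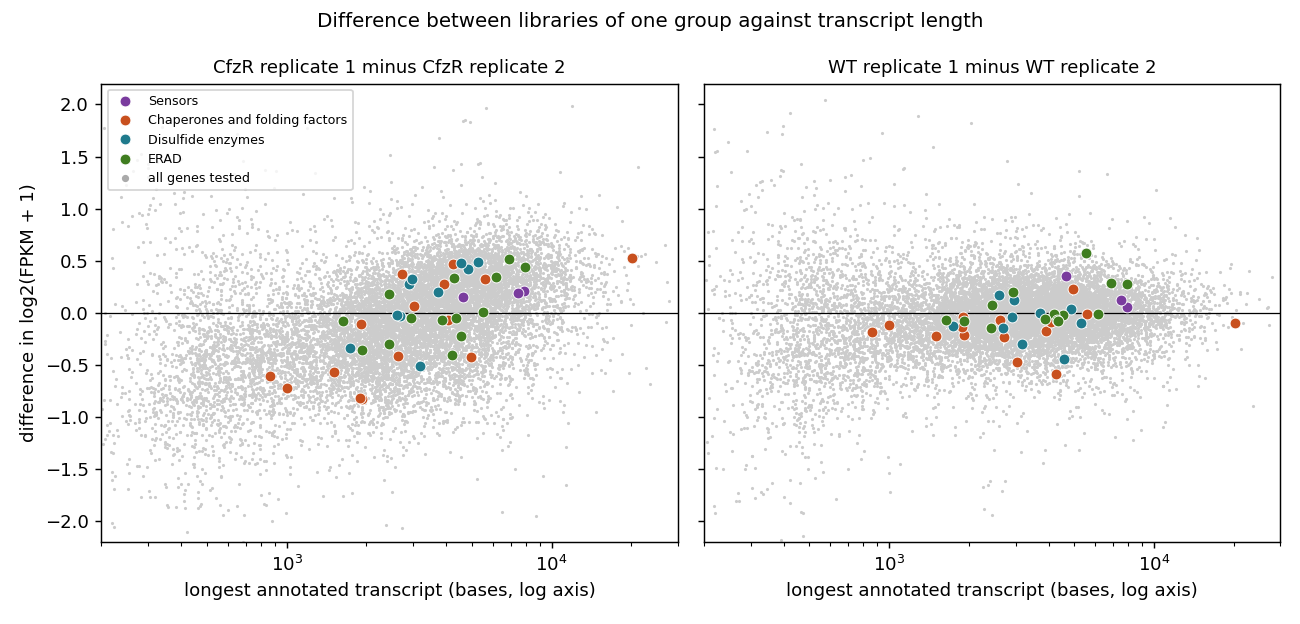
Difference in log2(FPKM + 1) between replicate 1 and replicate 2 against the longest annotated transcript (bases, log axis), left for CfzR and right for WT; coloured points are the 42 genes by role and grey points all genes tested. In CfzR the points climb with length (Spearman 0.68 over the 42 genes), with SIL1 and MZB1 lowest. In WT the Spearman coefficient is lower (0.45).

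As a share of all FPKM in a library, the 42 genes made up 0.787% and 0.650% in CfzR, against 0.628% and 0.618% in WT. Their summed levels were 5300 and 5702 FPKM in CfzR, against 5772 and 5905 FPKM in WT, so the larger share in CfzR replicate 1 goes with the lower sum of that library. TXNDC5, PDIA6, MZB1 and P4HB led the list by mean level. For the ERAD genes alone the sums were 712 and 713 FPKM in CfzR, against 629 and 609 FPKM in WT, and for the disulfide enzymes 2879 and 2813 FPKM in CfzR, against 3470 and 3464 FPKM in WT, with TXNDC5 the largest term.

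Of other genes of the pathway, 124 were listed as signalling and transcription factors, further folding factors and further ERAD factors, and 109 were tested. In these, 1 rose in limma (1 of 109, where 0.246% of all genes were called higher) and 0 fell; an unadjusted p under 0.05 was found for 9 higher genes and 4 lower ones of the 109, where 5.32% and 5.81% of all genes had one. The median log2 fold change was 0.14 for 23 signalling genes, 0.03 for 43 folding factors and -0.06 for 43 ERAD factors. Of the signalling genes 8 were higher and 4 lower without overlap (34.8% and 17.4%), and of the folding factors 13 and 6 (30.2% and 13.95%). Of the further ERAD factors 7 were higher and 10 lower (16.3% and 23.3%), where 22.1% and 22.6% of all genes were.

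The gene that rose was SVIP, which encodes a small VCP-interacting protein of the ER membrane, known as an inhibitor of ERAD (chr11:22813799-22830299, minus strand). It stood at 5.61 and 7.57 FPKM in CfzR, against 1.14 and 1.02 FPKM in WT. The level in CfzR was low and 6.10-fold that in WT in the means, with the groups far apart (log2 fold change 1.86, SE 0.24, limma adjusted p = 0.0369, 95% interval 1.29 to 2.42). The adjusted p was 0.159 without CfzR replicate 1, 0.0875 without CfzR replicate 2 and 0.117 after the correction for length and GC share, with log2 fold changes of 2.04, 1.67 and 1.55. With WT near 1 FPKM the log2 fold change depended on the constant added, at 2.49 with 0.1 FPKM and 0.93 with 5 FPKM. VCP, the ATPase that pulls ERAD substrates from the membrane, stood at 80.7 and 92.0 FPKM in CfzR, against 91.6 and 101 FPKM in WT (log2 fold change -0.16, limma adjusted p = 0.771).

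Of the transcription factors downstream of the sensors, neither XBP1 nor ATF4 stood higher in CfzR. XBP1, spliced by IRE1, stood at 800.0 and 868 FPKM in CfzR, against 953 and 1084 FPKM in WT. Both CfzR libraries were below WT (log2 fold change -0.29, limma adjusted p = 0.72), a direction that turned under quantile normalization (0.0828); gene-level FPKM do not separate spliced from unspliced XBP1. ATF4, translated when PERK is active, stood at 684 and 730.4 FPKM in CfzR, against 790.4 and 846 FPKM in WT, likewise below WT (log2 fold change -0.21, limma adjusted p = 0.778) and likewise turned by quantile normalization (0.14). DDIT3, the stress factor CHOP, stood at 44.5 and 70.5 FPKM in CfzR, against 46.1 and 49.1 FPKM in WT, with overlap.

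The highest of the signalling list was TXNIP, a thioredoxin-binding protein, at 187 and 154 FPKM in CfzR, against 94.5 and 93.0 FPKM in WT (log2 fold change 0.85, limma adjusted p = 0.222), and of the folding list PPIC, a cyclophilin of the secretory pathway, at 23.5 and 26.7 FPKM in CfzR, against 8.12 and 9.73 FPKM in WT. PPIC missed the threshold narrowly (log2 fold change 1.40, SE 0.20, limma adjusted p = 0.0555; adjusted p 0.0197 to 0.189 with 1 library left out). It passed under TMM scaling (0.0396), a filter at 5 FPKM (0.0446), quantile normalization (0.0464) and the length and GC correction (0.0477). It did not with no filter (0.0686), with no mean-variance trend (0.0738) or with pseudocounts of 0.1 FPKM (0.0616) and 5 FPKM (0.0603). The lowest of the folding list was DNAJC1, a J-domain protein of the ER membrane, at 428 and 571 FPKM in CfzR, against 708 and 792 FPKM in WT, and of the further ERAD factors the ubiquitin ligase STUB1 (CHIP), at 81.6 and 141 FPKM in CfzR, against 177 and 244 FPKM in WT, with log2 fold changes of -0.60 (adjusted p = 0.496) and -0.95 (adjusted p = 0.349). UFD1, a cofactor of VCP, was the highest of the further ERAD factors with a mean of at least 5 FPKM, at 31.6 and 32.8 FPKM in CfzR, against 31.1 and 19.2 FPKM in WT. Its groups were apart by little, and its log2 fold change of 0.38 (limma adjusted p = 0.586) was 0.0495 without WT replicate 2 and 0.72 without WT replicate 1.

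**Figure D5:**
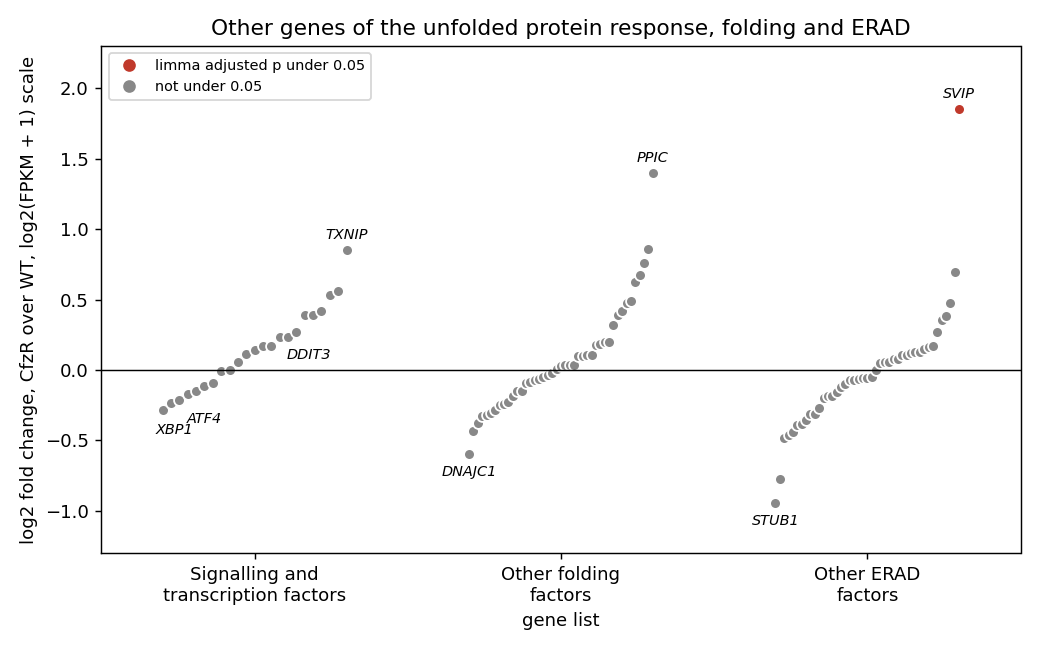
Log2 fold change (CfzR over WT, log2(FPKM + 1) scale) of the 109 other pathway genes tested, sorted within 3 lists; the coloured point passed an adjusted p of 0.05 in limma. SVIP stands highest at 1.86 and STUB1 lowest at -0.95, and most genes lie near 0.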

How the data were processed

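Libraries followed an mRNA protocol from TRIzol-extracted total RNA, per the labels' protocols. The tools were STAR and Cufflinks, per the submitters' processing notes. Tool versions, build, annotation and strand setting were not given in the sources used here. A single FPKM table was deposited, whose lowest row mean was 0.500, so genes below that are not analysed here. Depth is unknown. Columns named for a control were taken as WT, the only other group.

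IDs were matched to symbols (13174 of 15201) and to GENCODE 29 (GRCh38) for positions and the longest transcript. The 13411 genes averaging 1 FPKM or more were tested on log2(FPKM + 1) with limma 3.58.1 in R 4.3.3 (mean-variance trend, two-sided, Benjamini-Hochberg over all genes), and the code was tested on simulated data. All 42 genes have a transcript length, as do 12896 tested genes (96.2%). TMM scaling was an unweighted trimmed mean of M-values. The length and GC correction (splines with 4 degrees of freedom per library), the split at 3000 bases and the comments on single libraries were added after seeing the data.

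Members and lists were chosen with earlier results of these data known. The rule for named genes took every sensor, a fixed set of members, those with an unadjusted p under 0.05 and the extremes of each role. For other pathway lists it took XBP1, ATF4, DDIT3, genes past the threshold and the extremes with a mean of at least 5 FPKM. VCP, SLAMF7, TNFRSF17 and the genes under other observations were named after their values were seen. Values outside this rule are also given for further members, such as DNAJB11, PDIA3, ERP44 and OS9, and for SDC1 and ABCB1. Promoters are from RefSeq (GRCh38.p14); protein sequences were not used here.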

Additional observations from a re-analysis of the deposited data

How the results depend on the processing

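Results were recomputed under 12 other settings and the added length and GC correction. There the count of all genes past the threshold (47) was 27 with a filter at 5 FPKM and 1242 with a replicate block, and ran from 16 to 260 with 1 library left out. Of the 42 genes, 0 passed in the main test, and 3 passed with the replicate block (CANX, HSPA5 and EDEM1). With the block 1242 of all 13411 genes passed, so the 3 are no larger a share than that. With 1 library left out the log2 fold change of CANX ran from 1.01 to 1.59. The block leaves 1 residual degree of freedom, and the labels do not say that a number pairs libraries; the deviations of same-numbered libraries correlated at 0.25 over 13411 genes. A lone library in a group is assumed to vary like the others, and overlap of groups was not counted there. The block also took PPIC (adjusted p = 2.16e-08), TXNIP (0.00486) and STUB1 (0.00167, lower) past the threshold in limma. The 5 genes with an unadjusted p under 0.05, all higher, became 11 under quantile normalization, all higher (against 5.52% of all genes higher and 5.67% lower). With the block they were 11, 9 higher and 2 lower (against 8.02% and 12.6%). Without the mean-variance trend 4 were higher and 1 lower (against 5.33% and 5.56%). After the length and GC correction 5 were higher and 1 lower (against 6.64% and 7.12%). With 1 library left out the count fell or rose, depending on the library. The median log2 fold change of 0.24 was 0.42 under quantile normalization, 0.18 after the length and GC correction and 0.22 to 0.28 with 1 library left out, and stayed positive for each of the 4 roles under every alternative run.

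Some signs turned. Under quantile normalization this held for ATF4 (0.14), XBP1 (0.083), DNAJC10 (-0.061), EDEM3 (0.052), UBE2G2 (0.062), FKBP2 (0.13), FKBP11 (0.16) and MZB1 (0.23); under TMM scaling for FKBP11 (0.0026); after the length and GC correction for DERL2 (-0.14), DNAJC10 (-0.24), FKBP2 (0.16) and MZB1 (0.074). With 1 library left out the range of log2 fold changes crossed 0 for CRELD2 (-0.087 to 0.32), DDIT3 (-0.094 to 0.56), DERL1 (-0.11 to 0.47), DERL2 (-0.16 to 0.25), DNAJC10 (-0.25 to 0.28), EDEM2 (-0.048 to 0.30), EDEM3 (-0.33 to 0.18), FKBP2 (-0.44 to 0.28), FKBP11 (-0.23 to 0.19), MZB1 (-0.47 to 0.35), SDF2L1 (-0.59 to 0.018) and SELENOS (-0.094 to 0.20). The cause was not tested.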

Other observations

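Outside the 42 genes, 8 tested genes held an ERSE in the promoter window, among them known parts of the same response: XBP1 itself, FICD, the enzyme that modifies BiP, SERP1, a protein of the ER translocon, and ALG12, a mannosyltransferase that shares its promoter with CRELD2. FICD stood at 5.15 and 6.29 FPKM in CfzR, against 4.43 and 3.81 FPKM in WT, higher in CfzR without overlap (log2 fold change 0.39, limma adjusted p = 0.535). SERP1 stood at 159 and 185 FPKM in CfzR, against 200.1 and 253 FPKM in WT, lower without overlap (log2 fold change -0.39, limma adjusted p = 0.564). ALG12 stood at 16.7 and 5.55 FPKM in CfzR, against 10.1 and 5.88 FPKM in WT, with overlap. The 8 had a median log2 fold change of 0.12, with 5 positive. Without overlap 2 were higher (25%) and 2 lower, near the shares of all genes tested (22.1% and 22.6%).

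Among signalling, folding and ERAD factors that did not pass over all genes, several had an unadjusted p under 0.05. HSPA13, an Hsp70 relative of microsomes, stood at 37.4 and 22.1 FPKM in CfzR, against 15.4 and 15.5 FPKM in WT, and the membrane oxidoreductase TMX1 at 29.3 and 18.3 FPKM in CfzR, against 14.2 and 14.034 FPKM in WT. CNPY4 stood at 5.19 and 4.82 FPKM in CfzR, against 2.304 and 2.82 FPKM in WT, and the deubiquitinase YOD1, a partner of VCP, at 4.67 and 3.19 FPKM in CfzR, against 1.74 and 2.32 FPKM in WT. TRIB3 and PPP1R15A, which act in the arm of PERK, stood at 53.7 and 56.6 FPKM in CfzR, against 41.0 and 34.9 FPKM in WT for TRIB3 and 109.7 and 133 FPKM in CfzR, against 77.3 and 86.0 FPKM in WT for PPP1R15A. Lower in both CfzR libraries were the ERAD factor TMUB1, at 167 and 265 FPKM in CfzR, against 354 and 369 FPKM in WT, UBL4A, part of the BAG6 complex, at 35.2 and 35.7 FPKM in CfzR, against 47.8 and 52.1 FPKM in WT, and DNAJB12, a J-domain protein of the ER membrane, at 15.7 and 15.4 FPKM in CfzR, against 20.9 and 21.8 FPKM in WT. Their limma adjusted p ran from 0.279 for CNPY4 to 0.449 for DNAJB12. CHAC1, ATF3 and ATF5, on the signalling list with TRIB3 and PPP1R15A, had overlapping groups, and ATF4 was lower in both CfzR libraries.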
